A study of Mus musculus with 13 samples.

Results

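Transcripts of 10 genes that make or process fibrillar collagen were followed in whole quadriceps muscle of C57BL/6 mice: Col1a1, Col1a2, Col3a1, Col5a1, Col5a2, Serpinh1, Pcolce, Lox, Sparc and Bgn. They were taken by name from a table of 24015 genes and 13 libraries, with earlier results of these data known. All 10 were among the 11876 genes that reached 1 TPM in at least 3 libraries and were tested. TPM gives a gene's share of all transcripts in a library after division by transcript length, scaled to a fixed total, so levels of different genes can be compared within a library. The libraries form 4 groups. Batch 1 held 4 libraries of young mice (3 months; replicates 1, 3, 4 and 5) and 3 libraries of aged mice (labelled as older than 24 months; replicates 2, 3 and 4), all injected with vehicle. Batch 2 held 3 libraries of aged mice on vehicle (replicates 2, 3 and 8) and 3 of aged mice on SW033291 (replicates 1, 4 and 6), with the same strain and age label. SW033291 inhibits 15-PGDH, the enzyme that degrades prostaglandin E2, and was given at 5 mg/kg. All groups received daily intraperitoneal injections for 4 weeks, and the vehicle was a mixture of ethanol, Cremophor EL and dextrose in water. Young mice are present in batch 1 only and treated mice in batch 2 only. The labels do not say that the libraries came from separate animals, so the p-values given measure how these samples scatter, which may be technical.

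Fibrillar collagens are the rope-like proteins of connective tissue. Their chains are folded into a helix in the endoplasmic reticulum, where the chaperone HSP47, encoded by Serpinh1, holds them. After secretion the end pieces are cut off by proteases, an enzyme step that the enhancer protein encoded by Pcolce speeds up, and the fibrils are cross-linked by lysyl oxidase, encoded by Lox. Sparc and biglycan, encoded by Bgn, are secreted proteins that bind collagen and influence how fibrils assemble. In skeletal muscle the transcripts of the collagen chains come mainly from fibroblasts and fibro-adipogenic progenitors of the sheaths around the fibres and from tendon cells. The fibres themselves are not their main source.

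The 250 bases before the start site are given here for Col1a2, Col3a1 and Sparc, which fell with age, and for Bgn, the gene whose young and aged levels overlapped. They are RefSeq sequences of build GRCm38.p6, each printed 5′ to 3′ along the gene, and such sequences were used for 7 of the 10 genes. Capitals mark 3 short motifs searched on both strands. These are the CCAAT box, the TATA box written as TATAAA, and the GC box written as GGGCGG. The Col1a2 stretch lies at chr6:4505368-4505617 (plus strand), that of Col3a1 at chr1:45311288-45311537 (plus strand), that of Sparc at chr11:55420081-55420330 (minus strand) and that of Bgn at chrX:73483351-73483600 (plus strand).
Col1a2: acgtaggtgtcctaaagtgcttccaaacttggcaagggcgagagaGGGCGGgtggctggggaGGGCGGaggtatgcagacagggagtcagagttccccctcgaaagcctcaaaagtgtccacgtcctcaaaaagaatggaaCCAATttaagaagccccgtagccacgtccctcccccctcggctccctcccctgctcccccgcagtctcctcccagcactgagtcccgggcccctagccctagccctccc
Col3a1: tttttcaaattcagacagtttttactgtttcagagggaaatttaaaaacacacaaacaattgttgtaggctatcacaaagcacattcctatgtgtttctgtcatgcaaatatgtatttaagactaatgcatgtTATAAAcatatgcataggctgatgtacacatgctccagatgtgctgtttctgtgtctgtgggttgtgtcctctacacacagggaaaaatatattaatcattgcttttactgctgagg
Sparc: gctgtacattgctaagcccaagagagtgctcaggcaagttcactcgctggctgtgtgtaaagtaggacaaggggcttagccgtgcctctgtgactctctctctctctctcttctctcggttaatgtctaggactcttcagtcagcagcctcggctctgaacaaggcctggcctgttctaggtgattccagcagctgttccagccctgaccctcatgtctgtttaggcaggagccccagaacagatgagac
Bgn: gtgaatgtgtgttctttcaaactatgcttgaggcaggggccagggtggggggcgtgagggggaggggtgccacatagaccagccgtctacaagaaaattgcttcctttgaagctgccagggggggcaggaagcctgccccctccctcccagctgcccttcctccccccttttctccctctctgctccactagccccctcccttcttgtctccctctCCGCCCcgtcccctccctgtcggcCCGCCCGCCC
The Col1a2 stretch holds 1 CCAAT match, 109 bases before the start, and 2 GC boxes, 205 and 188 bases before it. The Col3a1 stretch holds 1 TATAAA match, 117 bases before the start. The Sparc stretch holds none of the 3 motifs. The Bgn stretch holds 3 GC boxes on the opposite strand, the last 2 of which overlap. CCAAT occurs in 33.8%, TATAAA in 12.4% and GGGCGG in 32.7% of the 32851 RefSeq stretches of this length. GC content was 62% for Col1a2, 35.2% for Col3a1, 54% for Sparc and 64.4% for Bgn. None of the 3 motifs is common to all 4 stretches. No binding or methylation was measured here, and a match is a description of letters.

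All 10 skeletal muscle markers were detected in each library, and their summed level was between 173533 and 215810 TPM. TPM holds no read numbers, so the sequencing depth of each library is unknown here and its counting error cannot be stated. Neutrophil and marrow transcripts stood high in 3 libraries, 1 in each aged group: the sum of 10 markers was 1766 TPM in aged vehicle batch 1 replicate 4, 780 TPM in aged vehicle batch 2 replicate 2 and 234 TPM in SW033291 replicate 4. It was between 0.87 and 22.4 TPM in the other 10 libraries. Adipocyte transcripts stood high in young replicate 1 (1690 TPM) and SW033291 replicate 1 (1781 TPM). Bone markers, from cells that also make type I collagen, summed to between 3.67 and 15.2 TPM in 12 libraries and to 27.95 TPM in aged vehicle batch 1 replicate 4. The skin keratinocyte markers summed to 2.30 TPM at most, with Krt5 and Krt14 listed at 0 in every young library.

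Within batch 1, aged and young mice on vehicle were compared to ask how collagen transcripts differ with age. Col1a1, Col1a2, Col3a1 and Sparc fell, the collagen chains by 3.82-fold to 4.50-fold and Sparc by 1.95-fold on the log2(TPM + 1) scale. These were 4 of the 10 genes, where 0.0842% of all 11876 genes were called lower by limma at an adjusted p under 0.05. The 10 genes were chosen with earlier results of these data known, so such shares, here and below, are a description and no test of the set. The young and aged libraries did not overlap for 9 of the 10, all but Bgn, where 2.7% of all genes had non-overlapping groups with the aged lower. The median log2 difference was -0.98 over the 10 genes and 0.06 over all genes tested. The summed level of the 5 collagen chains was 161 ± 14.3 TPM (SD, n = 4) in young and 41.0 ± 12.5 TPM (SD, n = 3) in aged muscle of batch 1.

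The type I collagen chains make up the main fibril of muscle connective tissue, as a helix of alpha 1 and alpha 2 chains. Col1a1 stood at 48.0, 40.3, 45.6 and 51.0 TPM in the young libraries (replicates 1, 3, 4 and 5) and at 7.01, 14.7 and 8.11 TPM in the aged ones (replicates 2, 3 and 4). The lowest young library was thus well above the highest aged one. Its log2 difference was -2.17 (SE 0.36, limma adjusted p = 0.0155), a 4.50-fold lower level on the log2(TPM + 1) scale. Col1a2 stood at 63.5, 61.5, 67.1 and 66.1 TPM in young and at 11.3, 21.4 and 17.4 TPM in aged libraries. The 4 young values lay close together, and the aged ones, all far below them, spread more. Its log2 difference was -1.93 (SE 0.30, limma adjusted p = 0.0122), or 3.82-fold lower. The call of Col1a2 ended in 1 of the 7 fits that left out a library, without aged replicate 2 (adjusted p = 0.0688). That of Col1a1 ended in 3: leaving out young replicate 1 gave 0.0621, young replicate 5 gave 0.0669 and aged replicate 2 gave 0.0815, with a log2 difference of -1.98 or lower in each fit.

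Type III collagen, a homotrimer encoded by Col3a1, is enriched in thin, extensible fibrils of the endomysium and of vessel walls. Col3a1 stood at 53.3, 43.2, 24.7 and 40.5 TPM in young and at 5.78, 9.77 and 14.0 TPM in aged libraries. Young replicate 4 was the lowest young library and still above every aged one. The log2 difference was -1.96 (SE 0.36, limma adjusted p = 0.0314), or 3.88-fold lower. The call remained in 2 of the 7 fits that left out a library, those without young replicate 4 and without aged replicate 4. It ended without young replicate 1, 3 or 5 or aged replicate 2 or 3, with adjusted p between 0.0740 and 0.106. Among all genes tested, Col1a1, Col3a1 and Col1a2 ranked 2, 3 and 4 from the lowest log2 difference with age.

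Type V collagen is a minor chain set that is built into type I fibrils and limits their diameter. Col5a1 stood at 7.35, 5.23, 4.22 and 5.53 TPM in young and at 1.44, 2.65 and 2.69 TPM in aged libraries. Col5a2 stood at 5.46, 4.39, 3.57 and 5.05 TPM in young and at 1.38, 2.42 and 3.02 TPM in aged libraries. Neither overlapped between the groups, and neither passed the threshold over all genes. Col5a1 had a log2 difference of -1.02 (SE 0.22, limma adjusted p = 0.0577) and Col5a2 one of -0.80 (SE 0.23, adjusted p = 0.169). Both are low in TPM, so the pseudocount of 1 shrinks these values, and with 0.1 in its place they were -1.29 and -1.04.

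**Figure D1:**
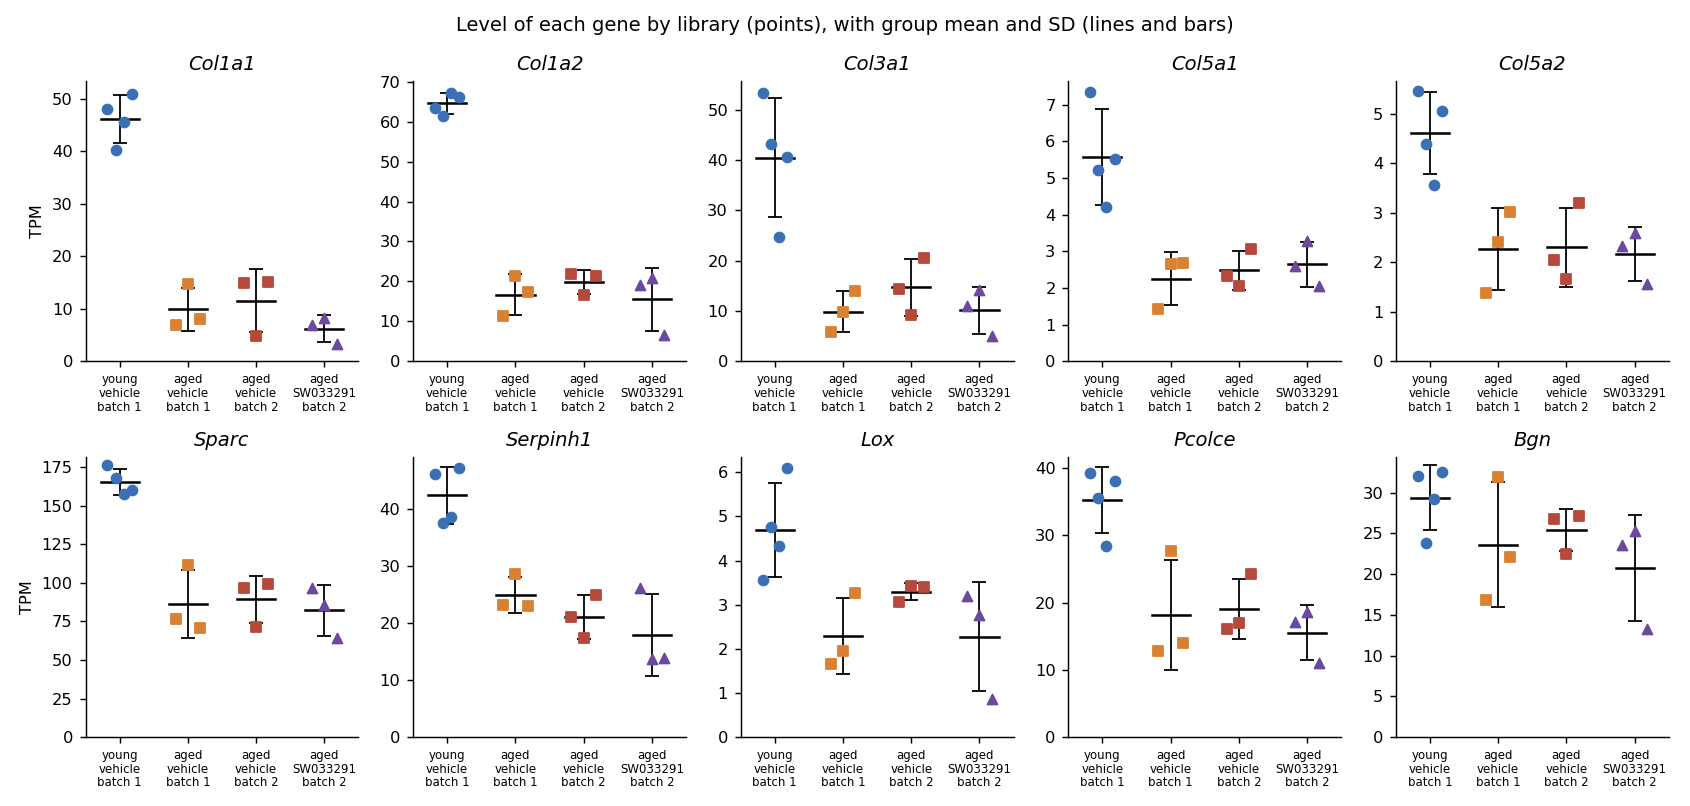
TPM of each of the 10 genes (vertical axes, each from 0) in the 13 libraries, by group (horizontal axes), with points for libraries, lines for group means and bars for SD. The young libraries stand above all 9 aged ones in each panel but that of Bgn, where 4 of the 9 aged libraries lie inside the young range of 23.8 to 32.5 TPM: 1 of aged vehicle batch 1, 2 of batch 2 and 1 of SW033291.

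Serpinh1, the collagen chaperone of the endoplasmic reticulum, stood at 46.0, 37.6, 38.6 and 47.2 TPM in young and at 23.1, 28.6 and 23.0 TPM in aged libraries. The groups were apart, but the log2 difference of -0.74 (SE 0.20, limma adjusted p = 0.144) did not pass. Pcolce, the enhancer of the protease that trims procollagen, stood at 39.2, 35.5, 28.3 and 38.1 TPM in young and at 12.8, 27.6 and 13.9 TPM in aged libraries. Aged replicate 3 came within 1 TPM of young replicate 4, and the other aged libraries were far lower. The log2 difference was -0.99 (SE 0.25, limma adjusted p = 0.106), and without aged replicate 3 it was -1.32 (adjusted p = 0.0204), past the threshold. Lox, the cross-linking oxidase, was the lowest of the processing genes at 3.55, 4.76, 4.34 and 6.09 TPM in young and 1.65, 1.95 and 3.26 TPM in aged libraries. Its groups were separated by a narrow gap, and the log2 difference of -0.80 (SE 0.27, limma adjusted p = 0.265) did not pass.

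Sparc, a collagen-binding glycoprotein that acts in fibril assembly, was the most abundant of the 10 genes in every group. It stood at 176, 168, 157 and 160 TPM in young and at 76.3, 111 and 70.5 TPM in aged libraries, with a log2 difference of -0.96 (SE 0.17, limma adjusted p = 0.0283). The young values were tight and all above the aged ones, but the call remained only in the fit without aged replicate 3 among the 7 that left out 1 library. Without young replicate 1, 3, 4 or 5 or aged replicate 2 or 4 the adjusted p lay between 0.0567 and 0.0959. Bgn, a small leucine-rich proteoglycan bound to fibrils, stood at 32.0, 23.8, 29.2 and 32.5 TPM in young and at 16.8, 31.9 and 22.1 TPM in aged libraries. These ranges overlapped, and the log2 difference was -0.34 (95% interval -0.83 to 0.15, limma adjusted p = 0.715). At an unadjusted p under 0.05, 9 of the 10 genes were lower with age, against 2.72% of all genes. Over all genes 10 were called lower and 44 higher as deposited. The split was 20 lower and 36 higher after median-of-ratios scaling, 30 and 41 after quantile normalization, and 28 and 35 without the 20 most abundant genes. Under each of those scalings 5 of the 10 genes were called lower, with Col5a1 added.

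The marker sums of fibro-adipogenic progenitors and of tenocytes were also lower in the aged libraries of batch 1. That of bone, whose cells make type I collagen too, was not. It ranged from 6.66 to 9.48 TPM in young and from 6.3 to 27.95 TPM in those aged libraries. The 10 fibro-adipogenic progenitor markers summed to between 211 and 344 TPM in young and between 141 and 197 TPM in aged libraries of batch 1. All 10 had a log2 difference below 0 (median -0.67), where 38.8% of all genes tested did, and none was called. In batch 2 the sum was between 187 and 237 TPM in aged vehicle and between 158 and 257 TPM in SW033291 libraries, so 2 libraries of each group lay inside the young range. Of 7 tested tenocyte markers, 5 were lower with a median over the list of -0.89, and 1 was called, Thbs4. It encodes a thrombospondin of tendon matrix and had a log2 difference of -1.61 (limma adjusted p = 0.0148), which did not pass without young replicate 1 (0.0621), without aged replicate 2 (0.0815), with no filter on low values (0.0507) or without the 3 neutrophil-rich libraries (0.0650). The tenocyte sum was between 104 and 127 TPM in young and between 38.9 and 69.0 TPM in aged libraries of batch 1. In batch 2 it was between 68.9 and 79.9 TPM in aged vehicle and between 37.4 and 80.2 TPM in SW033291 libraries, below the young range in all 6. The tendon transcription factors Scx and Egr1, the latter also a general stress response gene, had higher aged values (0.58 and 1.00 log2) and were not called. Other marker lists were mixed in batch 1, with none of their genes called. Below 0 were 6 of 6 for adipocytes (median -0.71), 6 of 6 for endothelium (-0.22) and 6 of 7 for macrophages (-0.50). It was 5 of 6 for smooth muscle and pericytes (-0.16), 6 of 10 for skeletal muscle (-0.05) and 3 of 5 for Schwann cells (-0.01). Bone markers had 1 of 2 below 0 (median 0.31), neutrophil markers 0 of 9 (2.07) and keratinocyte markers 0 of 1 (0.15). Per unit of the fibro-adipogenic sum, the 5 chains together stood at 0.599 ± 0.109 (SD, n = 4) in young and 0.232 ± 0.0362 (SD, n = 3) in aged libraries. Per unit of the tenocyte sum they stood at 1.45 ± 0.260 and 0.731 ± 0.0380. Neither ratio overlapped between the groups. In whole muscle, fewer cells of a type and less RNA per cell cannot be told apart, and the part of these markers in the collagen differences was not tested. Without the 3 libraries rich in neutrophil transcripts, 2 of the 10 genes passed with age, Col1a2 and Col3a1 (log2 differences -1.98 and -2.23), where 0.143% of all genes did, and Col1a1 stood at -2.07 (adjusted p = 0.0557).

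The aged libraries of batch 2 give a second reading of the same transcripts, against the same 4 young libraries, so it is not independent and age cannot be told apart from batch. Aged vehicle of batch 2 stood at 14.9, 4.75 and 15.1 TPM for Col1a1 and at 21.8, 16.5 and 21.5 TPM for Col1a2 in replicates 2, 3 and 8. Col3a1 stood at 14.4, 9.14 and 20.5 TPM and Sparc at 96.7, 71.6 and 99.6 TPM. Replicate 3 was the lowest of this group for 8 of the 10 genes. For 9 of the 10, again all but Bgn, all 9 aged libraries of both batches stood below all 4 young ones, as did 0.783% of all genes. Aged vehicle of batch 2 against young called 8 of the 10 lower, all but Lox and Bgn, where 1.94% of all genes were called lower. In this contrast Serpinh1 had a log2 difference of -0.98 (limma adjusted p = 0.00903) and Col5a1 one of -0.91 (0.0160). The mean of both aged vehicle groups against young called 8 of the 10 too, where 0.783% of all genes were called lower.

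**Figure D2:**
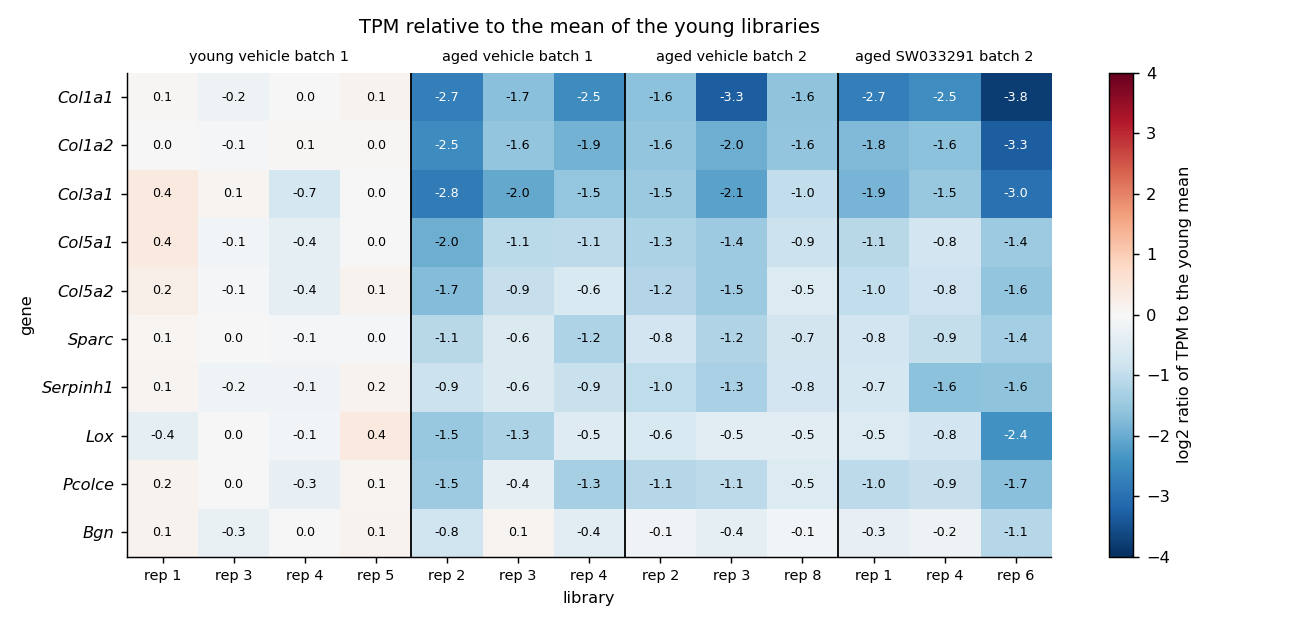
Each cell gives the log2 ratio of a gene's TPM in 1 library (columns, by group) to the mean of the 4 young libraries, for the 10 genes (rows); blue is lower and red higher. The darkest cells are those of Col1a1, Col1a2 and Col3a1 in aged libraries, with Col1a1 at -3.8 in SW033291 replicate 6, and the row of Bgn is the palest.

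The order of levels changed between young and aged muscle. In young libraries Sparc (165 TPM on average) was followed by Col1a2 (64.5 TPM), and each of these ranges was apart from the next. Then came Col1a1 (46.2), Serpinh1 (42.4), Col3a1 (40.4), Pcolce (35.3) and Bgn (29.4 TPM), neighbours whose ranges overlapped. Col5a1, Lox and Col5a2 formed a low set between 4.62 and 5.58 TPM, with overlapping ranges. In aged vehicle muscle of batch 1 Sparc (86.0 TPM) stayed on top, apart from the rest, and Serpinh1 (24.9), Bgn (23.6) and Pcolce (18.1 TPM) now preceded Col1a2 (16.7), Col1a1 (9.93) and Col3a1 (9.85 TPM). The ranges of neighbours overlapped throughout that middle stretch, and the next gap was below Col3a1. In both groups of batch 2 Bgn and Serpinh1 likewise had higher means than the type I chains.

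Ratios within a library compare the chains without reference to other transcripts. Col1a1 to Col1a2 had a geometric mean of 0.714 in young and 0.584 in aged libraries of batch 1, with overlap (exact two-sided permutation test, p = 0.171). Col3a1 to Col1a1 was 0.846 in young and 0.982 in aged, also with overlap (exact permutation p = 0.686), and without aged replicate 4 the difference changed sign. Col5a1 to Col1a1 stood at 0.153, 0.130, 0.0925 and 0.108 in young and at 0.205, 0.181 and 0.332 in aged libraries. Every aged library thus had more Col5a1 per Col1a1 than any young one, a 1.94-fold higher geometric mean. Col5a1 to Col5a2 had a geometric mean of 1.20 in young and 1.01 in aged libraries. Its highest aged and lowest young values, both 1.10, cannot be told apart at the rounding of the TPM values, and with aged vehicle of batch 2 the ranges overlapped (exact permutation p = 0.4). For both of these ratios in batch 1 the exact permutation p was 0.0571, the smallest that 4 against 3 libraries allow, and 0.114 after Benjamini-Hochberg adjustment over the 4 ratios. The ratios of Bgn and of Sparc to Col1a1 were added after the values had been seen. Bgn to Col1a1 was 0.633 in young and 2.42 in aged, and Sparc to Col1a1 was 3.59 and 8.96. Neither overlapped. Both were picked from these same values, so they are a description and no p-value is given for them.

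**Figure D3:**
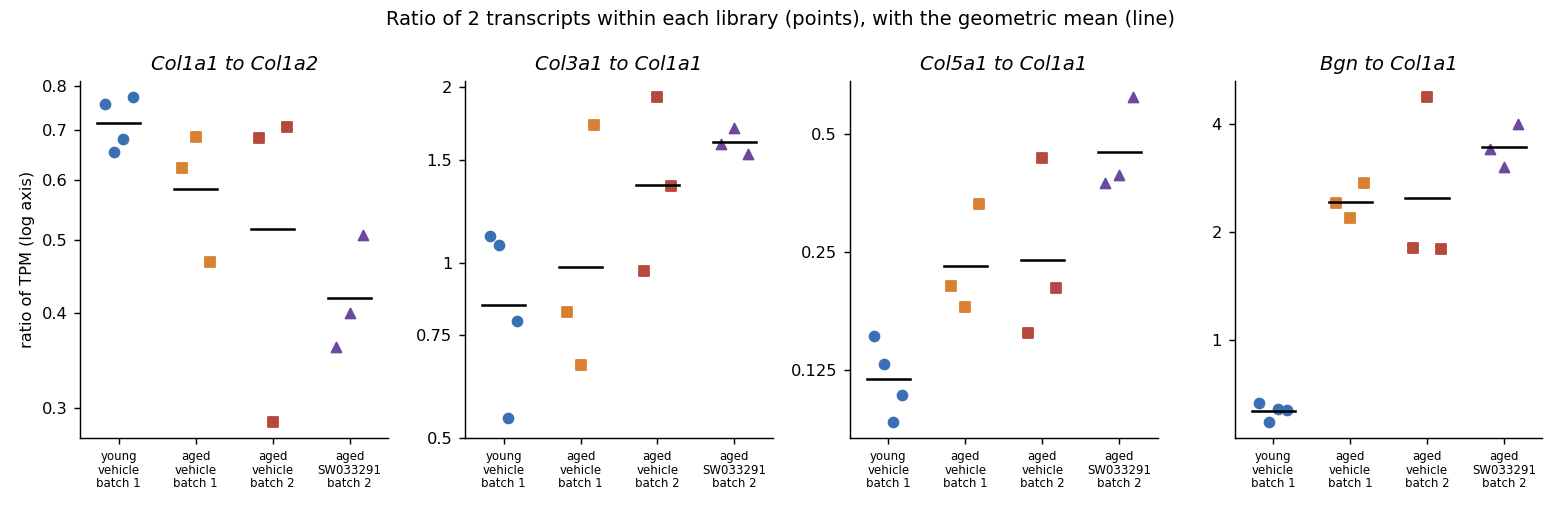
Ratio of the TPM of 2 genes within each library (vertical log axes) by group (horizontal axes), with points for libraries and lines for geometric means. The young points for Bgn to Col1a1 cluster near 0.633, below every aged point, while those for Col1a1 to Col1a2 and Col3a1 to Col1a1 overlap with aged vehicle.

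The comparison of SW033291 with vehicle in aged muscle of batch 2 asks whether 15-PGDH inhibition changes these transcripts. None of the 10 was called by limma, at either an adjusted or an unadjusted p under 0.05. No gene of the 11876 was called (0%), while 1221 (10.3%) had an unadjusted p under 0.05. With a pseudocount of 0.1 the count over all genes was 4, and without a variance trend it was 1. Col1a1 stood at 6.93, 8.35 and 3.33 TPM in SW033291 replicates 1, 4 and 6, against 14.9, 4.75 and 15.1 TPM in vehicle. The treated values lay inside the vehicle range or under it, and the log2 difference was -0.73 (95% interval -1.55 to 0.08, adjusted p = 0.522). Col1a2 stood at 19.2, 20.9 and 6.56 TPM and Col3a1 at 11.1, 14.2 and 5.12 TPM, with log2 differences of -0.48 (95% interval -1.17 to 0.22) and -0.53 (-1.35 to 0.30). The intervals of Col5a1 (-0.43 to 0.56), Col5a2 (-0.58 to 0.48) and Sparc (-0.52 to 0.27) spanned 0 more evenly. For the others the log2 difference was -0.28 for Serpinh1, -0.47 for Lox, -0.29 for Pcolce and -0.33 for Bgn, with intervals that reached from -1.09 to 0.29.

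A log2 difference below 0 was found for 9 of the 10 genes in this comparison, where 71.1% of all genes lay below 0. The median of all genes was -0.13, and it was -0.00 after median-of-ratios scaling. The median of the 10 genes was -0.31, or -0.18 relative to that of all genes. The groups overlapped for all 10, where 17.1% of all genes did not overlap. SW033291 replicate 6 was the lowest treated library for 9 of the 10 genes and the lowest of all 9 aged libraries for 7. Lox was at 0.87 TPM there, against 3.20 and 2.76 TPM in the other treated libraries. That library also had the lowest fibro-adipogenic and tenocyte sums of its group (158 and 37.4 TPM, against at least 255 and 49.6 TPM), whose part was not tested. Without it the log2 difference was -0.40 for Col1a1, -0.14 for Col3a1, -0.11 for Lox and 0.02 for Col1a2. Col5a2 and Sparc changed sign with median-of-ratios scaling, so no direction is given for them.

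**Figure D4:**
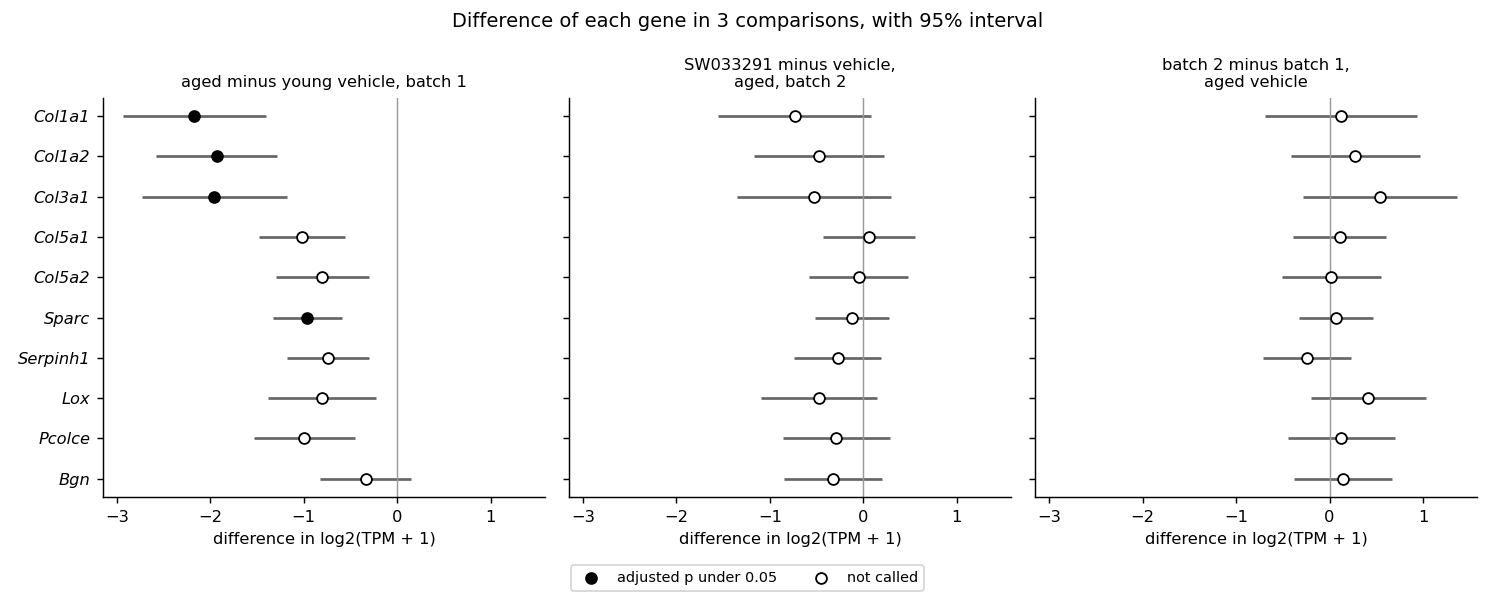
Log2 difference of each of the 10 genes (rows) in 3 comparisons (panels), in log2(TPM + 1), with 95% intervals; filled points passed an adjusted p of 0.05 in limma. With age the intervals of 9 genes lie wholly below 0 and 4 points are filled; with SW033291 and between the batches every interval includes 0.

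The aged vehicle groups of batch 1 and batch 2 share a label for age and treatment, and their comparison shows how far the batches differ for these genes. None of the 10 was called, where 2.25% of all genes were called in either direction. None had an unadjusted p under 0.05 either, against 18.1% of all genes. The log2 difference of batch 2 against batch 1 lay between -0.24 for Serpinh1 (95% interval -0.71 to 0.23) and 0.54 for Col3a1 (-0.29 to 1.37), with Lox at 0.42 (-0.20 to 1.04). These intervals do not show that the batches are alike. The number of all genes called between batches ranged from 18 without aged batch 1 replicate 2 to 1643 without aged batch 1 replicate 4. It was 21 without batch 2 replicate 2, 21 without batch 2 replicate 3 and 478 without batch 2 replicate 8.

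Other genes of the collagen pathway were read from 5 lists, and no gene of them was called with age or with SW033291. The lists differ in how many of their genes had lower aged values, and those differences between lists were not tested. Among all genes tested, 38.8% had a log2 difference below 0 with age. In the list for procollagen cleavage and cross-linking all 7 tested genes were below 0, with a median of -0.62. Adamts2, which removes the amino-terminal end of procollagen, stood at 3.98 ± 0.786 TPM (SD, n = 4) in young and 1.55 ± 0.465 TPM (SD, n = 3) in aged muscle, a log2 difference of -0.97 (limma adjusted p = 0.0675). Bmp1, the protease that Pcolce enhances, had a log2 difference of -0.77 (0.144), and Loxl2, a cross-linking oxidase related to Lox, one of -0.64 (0.380).

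Among fibril-associated collagens and proteoglycans 16 of 17 tested genes were below 0, with a median of -0.65, and 7 had aged libraries wholly below the young ones, against the 2.7% of all genes. Fmod, which encodes the fibril-binding proteoglycan fibromodulin, stood at 114 ± 27.7 TPM (SD, n = 4) in young and 46.9 ± 22.1 TPM (SD, n = 3) in aged muscle, with a log2 difference of -1.33 (limma adjusted p = 0.0520). Col6a1 and Col6a2, chains of the microfibrils that surround muscle fibres, had log2 differences of -1.22 (0.0680) and -1.18 (0.112). Fibromodulin and biglycan are related proteoglycans, and their values with age, -1.33 and -0.34, stand apart, a difference that was not tested.

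In the list for chain folding and modification in the endoplasmic reticulum 14 of 21 tested genes were below 0, with a median of -0.07. The log2 differences farthest from 0 were -0.40 for Fkbp10, a collagen-directed prolyl isomerase, -0.36 for Crtap, a part of the prolyl 3-hydroxylation complex, and 0.34 for Tmem38b, an ion channel of the endoplasmic reticulum. No gene of this list had aged libraries wholly below the young ones, and 2 had them wholly above, as did 8.85% of all genes. Serpinh1, which works at the same site, had a log2 difference of -0.74. Between the batches 2 genes of this list were called higher in batch 2. Mia3, which encodes the collagen cargo receptor TANGO1, had a log2 difference of 0.93 (limma adjusted p = 0.0172) and P4hb, which encodes a prolyl 4-hydroxylase subunit, one of 0.43 (0.0383). Mia3 did not pass without batch 1 replicate 2 (0.0877), batch 2 replicate 2 (0.0566) or batch 2 replicate 3 (0.0772), or with only the 2 groups in the fit (0.272). P4hb passed in 1 of the 6 fits that left out a library, that without batch 1 replicate 4 (0.0199), and not after median-of-ratios scaling (0.250), after quantile normalization (0.0943), with no variance trend (0.0895) or with only the 2 groups in the fit (0.341). In the other 5 fits, without batch 1 replicate 2 or 3 or batch 2 replicate 2, 3 or 8, its adjusted p lay between 0.0598 and 0.127.

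Of the genes for degradation and uptake, 8 of 16 tested were below 0 and 8 above, with a median of -0.04. Mmp2, a gelatinase, and Mrc2, a receptor that takes up collagen, had log2 differences of -0.63 and -0.62 and were not called. Mmp8, the neutrophil collagenase, had a log2 difference of 0.95 and was not called. The table lists it at 0 for each young library, and it reached 5.03 TPM in aged batch 1, the group with the library richest in neutrophil transcripts, whose part was not tested. Of 6 other fibrillar collagen genes 3 were tested: Col5a3 (-0.31), Col24a1 (0.15) and Col11a2 (0.31). All 3 overlapped between the groups. They lay between 1.28 and 6.67 TPM on average in young muscle, below types I and III.

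**Figure D5:**
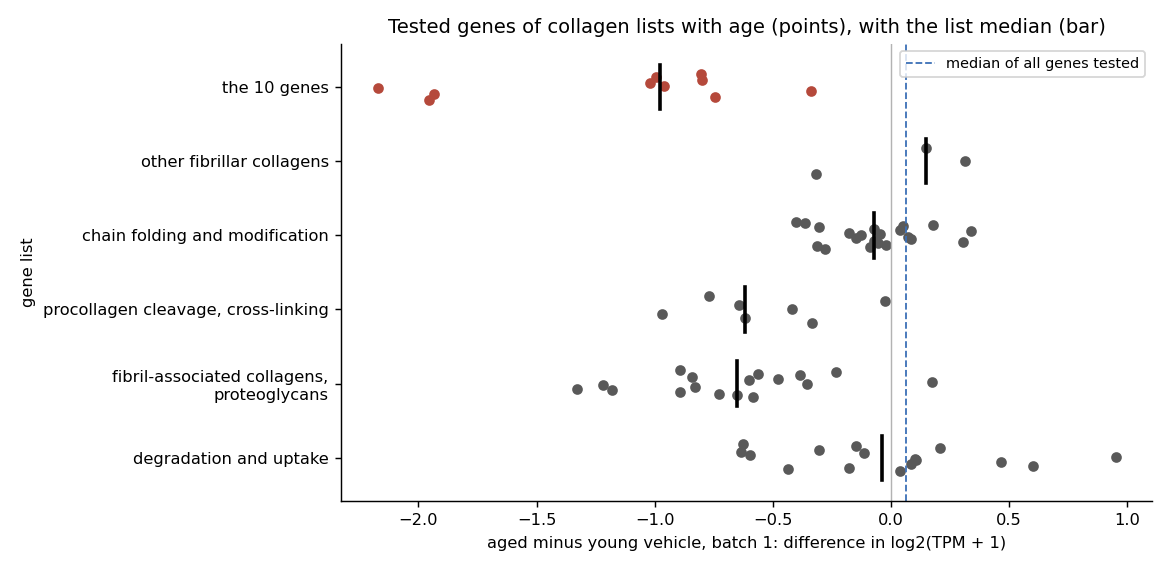
Log2 difference with age in batch 1 (horizontal axis, log2(TPM + 1)) of each tested gene of the 10 (red) and of 5 further lists (grey), 1 row per list, with black bars for medians and a dashed line for the median of all genes. The medians lie at -0.98 for the 10 genes, -0.65 for fibril-associated genes, -0.62 for cleavage and cross-linking, and near 0 for folding and degradation.

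The 8 genes whose pattern was most like that of the 10 were found by Pearson correlation across the 13 libraries with the mean of the 10 standardised genes. These were Col6a2 (r = 0.953), Thbs3 (0.939), Serpinf1 (0.930), Sfrp4 (0.928), Ssc5d (0.925), Loxl2 (0.925), Gas1 (0.924) and Antxr1 (0.920). The libraries fall into young and aged, so r reflects that split. Over the 9 aged libraries alone the values lay between 0.730 for Ssc5d and 0.953 for Loxl2. Thbs3 encodes a thrombospondin, Sfrp4 a secreted modulator of Wnt signalling, Gas1 a membrane-anchored growth arrest protein and Antxr1 a receptor that binds collagen. Serpinf1, which encodes the secreted serpin PEDF, stood at 60.6 TPM on average in young muscle and between 23.7 and 25.8 TPM in the 3 aged groups.

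In the authors' deposited table for age, 9 of the 10 genes were listed as lower, all but Bgn, where 1.24% of all genes were listed as lower. The authors' deposited table gave Col1a1 a log2 fold change of -2.17 (adjusted p = 1.6e-11) and Col1a2 one of -1.93 (adjusted p = 3.9e-29). In the authors' deposited table the remaining listed genes lay between -1.85 for Col3a1 and -0.93 for Serpinh1, with Lox at the highest adjusted p of the 9 (0.0048). Those values come from counts and from libraries not stated in the sources used here, and they are not independent of the values above. In the authors' deposited table for SW033291 the 10 genes had unadjusted p between 0.226 for Col1a1 and 0.874 for Col5a2.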

How the data were processed

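RNA of whole quadriceps was sequenced from TruSeq RNA libraries, per the labels' protocols. Tools named in the submitters' processing notes are RSEM, STAR, DESeq and DESeq2, with build mm9 and no versions. The authors deposited TPM values for 24015 genes and 13 libraries. The authors also deposited tables for age and SW033291 with a log2 fold change and its SE, a p-value, a test score and a mean normalised signal per gene. The names in the TPM table did not belong to their rows. After 27 spreadsheet dates were undone, all names were sorted in byte order and put back on the rows. The SW033291 differences then had a Pearson correlation across 6361 genes with the authors' table of 0.928, against -0.0122 as deposited and 0.0898 or 0.0869 after a shift by 1 row. For the age differences, with both aged vehicle batches, it was 0.783 across the 813 genes the authors list, against 0.00230 (812 genes) as deposited and 0.155 or 0.193 after such a shift. Within 100 rows on either side of each of the 10 genes it was 0.936 to 0.973.

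Values were log2(TPM + 1), with a pseudocount of 1, for the 11876 genes that reached 1 TPM in 3 libraries or more. limma 3.58.1 in R 4.3.3 fitted 1 coefficient per group over all 13 libraries, with a variance trend and Benjamini-Hochberg adjustment over all genes tested, threshold 0.05, and was tested on simulated data. The 4 ratios of collagen chains were tested by exact permutation (scipy 1.17.1). Groups were taken from the labels. Further genes named are those called in a pathway list, the 3 with the largest absolute difference with age in each list, and the 8 most alike. Of the marker lists, Thbs4 is named because it was called with age, and Myh4 and Pvalb because they were called between batches. Scx, Egr1, Krt5 and Krt14 are named outside these rules. The 10 genes and all lists were chosen with earlier results of these data known. Alternatives covered the pseudocount, filter, scaling, fit, block and each library left out.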

Additional observations from a re-analysis of the deposited data

How the results depend on the processing

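The number of the 10 genes called with age was 4. It was 1 with no filter on low values, 2 with only the 2 groups in the fit, 2 with no variance trend, 2 without the 3 neutrophil-rich libraries (added after seeing the data), 8 with aged vehicle of batch 2 as the aged group and 8 with the mean of both aged vehicle groups. Leaving out 1 library gave 0 to 4 of the 10, and 19 to 92 genes over all. The replicate block was fitted on the 2 compared groups alone. Its contrast with age rests on the numbers that both groups hold, 3 and 4. With this block 0 of the 10 were called and 6 genes over all. Those 2 groups without a block gave 2 of the 10 and 24 genes. Of the list genes named as called, Thbs4 with age had an adjusted p of 0.209 in limma with the block. Between batches P4hb had 0.0884, Mia3 0.0164, Myh4 0.00624 and Pvalb 0.0166 in limma with the block. Young and aged libraries with the same number had correlations of deviations from their group means of 0.171 and 0.0401, and the batches -0.147 and -0.0597. With so few such pairs, and no other pairs set beside them, these values cannot show whether the numbers mark a pairing. No block could be fitted for SW033291, whose replicates share no number with vehicle. Between batches the block, resting on the shared numbers 2 and 3, gave 905 genes over all and 0 of the 10. The main fit of all 13 libraries gave 267 genes, and the 2 groups without a block gave 1. Leaving out 1 library called 0 of the 10 in both other comparisons.

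Directions with age were kept in all alternatives except for Bgn, at 0.0124 with the replicate block, which rests on the shared numbers 3 and 4. With SW033291, after median-of-ratios scaling Col5a2 was 0.0473 and Sparc 0.0218, and after quantile normalization Col5a2 was 0.0624. Leaving out 1 library gave ranges that spanned 0 for 4 genes. These were -0.190 to 0.135 for Col5a2 (above 0 without vehicle replicate 8, and 0.0964 without SW033291 replicate 6), -0.274 to 0.0409 for Sparc, -0.751 to 0.0151 for Col1a2 and -0.0612 to 0.181 for Col5a1. Sparc and Col1a2 lay above 0 without SW033291 replicate 6. Col5a1 lay below 0 without vehicle replicate 3 (-0.0264) or SW033291 replicate 4, and was -0.0905 without the neutrophil-rich libraries. The log2 ratio of Col3a1 to Col1a1 with age ranged from -0.19 (without aged replicate 4) to 0.50 when 1 library was left out. That of Col5a1 to Col1a1 ranged from 0.70 to 1.14 and that of Bgn to Col1a1 from 1.85 to 2.01. The causes were not tested. The depth behind each TPM is unknown, which limits what can be said of Col5a1, Col5a2 and Lox, the genes nearest to 1 TPM. The authors' deposited table for SW033291 gave these genes mean normalised signals of 48.6, 36.3 and 25.1. Such averages do not give the depth of a library.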
